A study of Mus musculus with 20 samples.

Results

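The genes described here are 9 genes of the MHC class II antigen presentation pathway, which were H2-Aa, H2-Ab1, H2-Eb1, Cd74, H2-DMa, H2-DMb1, H2-Oa, H2-Ob and Ciita. They were taken by gene symbol and are 9 of 59311 genes in the expression table. Ly6Chi and Ly6Clo monocyte-derived macrophages (MoMac) were sorted from the fibrotic livers of 10 mice, which gave 20 RNA sequencing libraries. The questions were how these genes differed between the subsets of the same liver and whether they responded to Ac-6-FP. Ac-6-FP (acetyl-6-formylpterin) is a ligand of MR1 that does not activate MAIT cells, the innate-like T lymphocytes restricted by MR1.

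All 10 mice were C57BL/6J males, aged 10 to 12 weeks when fibrosis was induced. All had received CCl4, a hepatotoxin, at 0.6 ml/kg for 4 weeks, so that no library came from an uninjured liver. Mice 16 to 20 were given Ac-6-FP at 0.25 mg/kg and mice 11 to 15 its vehicle, DMSO in PBS, and livers were taken 2 days after the last dose of CCl4. Cells positive for CD11b and F4/80 and negative for Ly6G, CD11c and CD3 were split by Ly6C, and about 30000 cells of each subset were collected at a purity above 90%. Each of the 4 groups thus held 5 libraries (Ly6Chi vehicle, Ly6Chi Ac-6-FP, Ly6Clo vehicle and Ly6Clo Ac-6-FP), with 1 mouse per library.

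Class II molecules are heterodimers that carry peptides from endocytosed proteins to the cell surface, where CD4+ T cells read them. H2-Aa and H2-Ab1 encode the alpha and beta chain of I-A, and H2-Eb1 encodes the beta chain of I-E, whose alpha chain is not made in C57BL/6 mice. Cd74, the invariant chain, escorts newly made class II dimers and fills their groove until lysosomal proteases cut it. H2-DMa and H2-DMb1 encode the chains of H2-DM, which exchanges the remaining fragment for peptide, and H2-Oa and H2-Ob encode H2-O, which holds H2-DM back and is best known from B cells. Ciita is the transactivator that switches the set on, and it acts through factors bound to the X and Y boxes of class II promoters rather than by binding DNA itself.

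By the coordinates of the table (mm10), 7 members lay within the major histocompatibility complex of chromosome 17, between 34092340 (start of H2-Oa) and 34316674 (end of H2-Eb1). Ciita lay on chromosome 16 (10480059 to 10527640), and Cd74 also lay outside the complex. RefSeq promoter windows of the same build (GRCm38.p6), from 250 bases before to 50 bases after a gene's start, were matched by symbol for 6 of the 9 members. Each was searched on both strands for an X box core (CCNAGNNAC) and a Y box core (GATTGG), and for an X core followed by a Y core on 1 strand within 60 bases. Among 32851 windows of this length, 17.3% held the X core, 16.1% the Y core and 0.347% the ordered pair.

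The pair was found upstream of H2-Oa, H2-DMb1 and H2-Ob. H2-Aa and H2-Eb1 held the Y core at a similar place, preceded by a shorter stretch, GNAAC, which was searched only after the windows had been seen and which precedes a Y core in 2.59% of all windows. H2-DMa had windows at 2 starts, 1 of which held the Y core, and neither held either pair. The stretches are shown because they are the shared elements through which Ciita is known to act. Capitals mark the X core (GNAAC in H2-Aa and H2-Eb1) and the Y core, and the letters run 5′ to 3′ on the strand of the gene. They came from chr17:34092291-34092348 (plus strand) for H2-Oa, chr17:34153085-34153142 (plus) for H2-DMb1, chr17:34238806-34238860 (plus) for H2-Ob, chr17:34287859-34287912 (minus) for H2-Aa and chr17:34305768-34305820 (plus) for H2-Eb1.
H2-Oa: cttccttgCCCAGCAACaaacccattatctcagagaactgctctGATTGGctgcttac
H2-DMb1: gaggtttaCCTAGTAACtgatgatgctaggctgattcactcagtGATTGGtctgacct
H2-Ob: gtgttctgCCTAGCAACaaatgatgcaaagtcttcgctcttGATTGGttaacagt
H2-Aa: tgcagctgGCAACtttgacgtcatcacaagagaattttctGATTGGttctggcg
H2-Eb1: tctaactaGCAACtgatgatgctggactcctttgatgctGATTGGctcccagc
The X box stretch began between 80 and 98 bases before the gene's start in these 5 windows, and between 24 and 27 bases separated it from the Y core. A match of letters describes the sequence only and is not a measured binding site.

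Expression is given as normalized counts, the authors' read counts divided by a size factor per library, without division by gene length. Between 5693049 and 18682437 reads were counted on genes per library. The Ly6Clo vehicle library of mouse 13 stood apart, with 5343 genes detected against 9017 to 15766 in the others. In that library, 2765 of the 6652 genes with a median of at least 100 normalized counts were at 0, against at most 870 in any other library. Results that rest on it are given with and without it. Vehicle libraries also detected fewer genes at the median, although the ranges overlapped. Medians were 9749 with vehicle and 13622 with Ac-6-FP in Ly6Chi cells, and 10379 and 14084 in Ly6Clo cells. Comparisons of Ac-6-FP with vehicle carry this difference, and fits with genes detected as a covariate are given for them. Adgre1 (F4/80), Itgam (CD11b), Csf1r and Fcgr1 were detected in all 20 libraries, although Itgam was at 2.09 normalized counts, about 1 read, in the Ly6Clo library of mouse 13. Mertk, another macrophage marker, was at 0 in 15 of 20 libraries. Ly6c2 was lower in Ly6Clo cells by a log2 difference of -3.46.

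The class II chains and Cd74 were expressed in both subsets and were far higher in Ly6Clo cells of every mouse. H2-Ab1 was at 1187, 1653, 2779, 2449 and 1885 normalized counts in Ly6Chi vehicle libraries (mice 11 to 15) and at 1120, 1164, 1759, 1164 and 1834 in Ly6Chi Ac-6-FP libraries (mice 16 to 20). In Ly6Clo cells of the same mice it was at 116774, 110582, 81787, 86359 and 112713 with vehicle and at 113603, 109171, 113378, 54743 and 78253 with Ac-6-FP. The lowest Ly6Clo library thus lay far above the highest Ly6Chi library. Within mouse, the log2 difference Ly6Clo minus Ly6Chi was 5.88 (SE 0.17, limma adjusted p = 1.482e-08), a fold of 58.9 (95% interval 45.2 to 76.7). H2-Ab1 had the smallest p of the 17248 genes tested.

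H2-Aa, the partner of H2-Ab1, was at 951, 1137, 2090, 1556 and 1651 in Ly6Chi vehicle libraries and at 1191, 624, 1125, 816 and 1337 in Ly6Chi Ac-6-FP libraries. Its Ly6Clo values were 102768, 62658, 38408, 46458 and 58071 with vehicle and 65259, 67926, 77752, 39873 and 46954 with Ac-6-FP. The subsets did not overlap, and the Ly6Clo vehicle libraries spread from mouse 13 at the bottom to mouse 11 at the top. The log2 difference was 5.62 (SE 0.22, limma adjusted p = 4.838e-08). H2-Eb1, the I-E beta chain that lacks a partner in this strain, ranged from 323 to 1133 (median 605) in 10 Ly6Chi libraries and from 19238 to 58007 (median 32423) in 10 Ly6Clo libraries. It differed by 5.68 (SE 0.26, limma adjusted p = 1.406e-07), so that the unpaired beta chain moved with the I-A chains.

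Cd74, on chromosome 18 (60803848 to 60812651, mm10), was at 8086, 8631, 13591, 13647 and 12850 in Ly6Chi vehicle libraries and at 6300, 4446, 9107, 7928 and 6604 in Ly6Chi Ac-6-FP libraries. In Ly6Clo libraries it reached 445874, 395509, 219688, 238550 and 254884 with vehicle and 300617, 290784, 355811, 182283 and 209293 with Ac-6-FP. Subsets did not overlap for Cd74 either, and its log2 difference of 5.02 (SE 0.19, limma adjusted p = 4.838e-08) corresponds to a fold of 32.4 (95% interval 24.2 to 43.2). Cd74 alone took 2.22% ± 0.655 (SD, n = 10) of the reads counted on genes in Ly6Clo libraries and 0.0775% ± 0.0278 (n = 10) in Ly6Chi libraries. No other tested gene had a higher mean normalized count in Ly6Clo cells, a rank of counts that are not divided by length. H2-Aa, H2-Ab1, H2-Eb1 and Cd74 together took 3.69% ± 1.00 of the reads in Ly6Clo libraries and 0.108% ± 0.0368 in Ly6Chi libraries.

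The ratio of Ly6Clo to Ly6Chi within a mouse had a median of 62.1 for H2-Ab1 (29.4 to 101), 51.8 for H2-Aa (18.4 to 109), 44.8 for H2-Eb1 (17.0 to 121) and 35.4 for Cd74 (16.2 to 65.4) over 10 mice. All 10 mice showed the same direction for these 4 genes. The two-sided exact permutation p over sign flips was 0.001953 for each, the smallest that 10 mice allow. These 4 of the 9 members were the ones whose 10 Ly6Clo libraries all exceeded all 10 Ly6Chi libraries, which held for 0.974% of all genes tested.

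**Figure D1:**
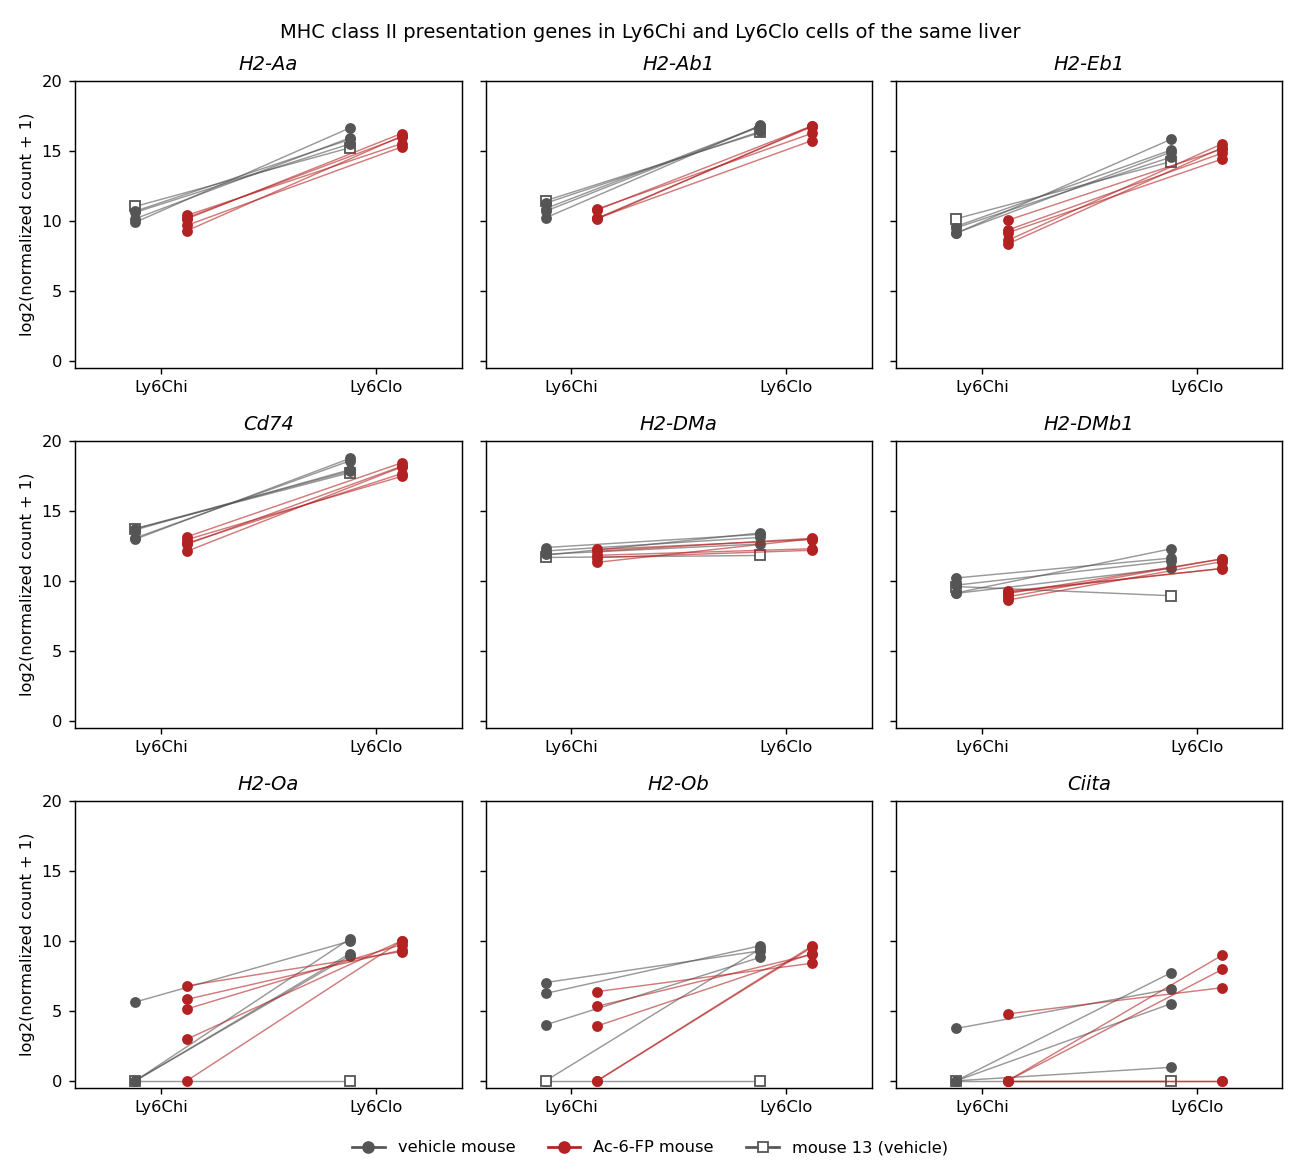
Each panel plots log2(normalized count + 1) of 1 gene (y axis) in Ly6Chi and Ly6Clo libraries (x axis), with a line joining the libraries of 1 mouse, grey for vehicle and red for Ac-6-FP, and open squares for mouse 13. H2-Aa, H2-Ab1, H2-Eb1 and Cd74 rise steeply in all 10 mice, H2-DMa rises little, and H2-Oa, H2-Ob and Ciita are at or near 0 in many Ly6Chi libraries.

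The chains of H2-DM, the peptide editor, differed much less between the subsets. H2-DMa was at 3666, 5367, 3272, 3846 and 4524 in Ly6Chi vehicle libraries and at 4880, 2573, 4455, 3261 and 3646 in Ly6Chi Ac-6-FP libraries. In Ly6Clo libraries its values were 11053, 10334, 3623, 6400 and 8873 with vehicle and 7978, 8290, 8477, 4677 and 5050 with Ac-6-FP. H2-DMa was higher in the Ly6Clo library of each of the 10 mice, although the subsets overlapped across mice. The log2 difference was 0.87 (SE 0.15, limma adjusted p = 0.004544), and the mean level in Ly6Chi cells was 52.8% of that in Ly6Clo cells. Over the alternatives tried the adjusted p ranged from 0.001338 to 0.05188, the highest by edgeR with a replicate block and without mouse 15.

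H2-DMb1 ranged from 395 to 1186 (median 573) in Ly6Chi libraries. Its Ly6Clo values were 5021, 3168, 490, 1919 and 2755 with vehicle and 3053, 2677, 3064, 1895 and 1902 with Ac-6-FP. It was higher in Ly6Clo cells of 9 mice and lower in mouse 13, at 490 against 776. The log2 difference was 1.87 (SE 0.31, limma adjusted p = 0.003556), and 2.14 (SE 0.21, adjusted p = 0.0001228) without mouse 13. Of the 75-base words in its GENCODE transcripts, 15.8% also occur in transcripts of H2-DMb2, the neighbouring gene for another H2-DM beta chain, so that reads of the length sequenced can be shared by both genes. H2-DMb2 itself was higher in Ly6Clo cells, by 4.38 (limma adjusted p = 0.0001504), with mean values of 87.0 in Ly6Chi and 1473 in Ly6Clo libraries.

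The genes for H2-O, the inhibitor of H2-DM, were close to absent in Ly6Chi cells. H2-Oa was at 48.7, 0, 0, 0 and 0 in Ly6Chi vehicle libraries and at 6.87, 55.7, 0, 110 and 34.3 in Ly6Chi Ac-6-FP libraries. Its Ly6Clo values were 1018, 493.1, 0, 549 and 1144 with vehicle and 1031, 652, 1024, 606 and 857 with Ac-6-FP. With the exception of mouse 13, at 0 in both subsets, each mouse had at least 493.1 normalized counts in Ly6Clo cells. The log2 difference was 6.02 (SE 1.07, limma adjusted p = 0.005645) and 6.83 (SE 0.86, adjusted p = 0.0005991) without mouse 13. Over the alternatives tried the adjusted p ranged from 0.0005991 to 0.07029, the highest by edgeR without mouse 15. The kit does not record strand, and H2-Oa overlaps BC051537, which had means of 3.74 in Ly6Chi and 138 in Ly6Clo libraries and shares 11.8% of the 75-base words of H2-Oa.

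H2-Ob was at 15.1, 0, 0, 130 and 75.2 in Ly6Chi vehicle libraries and at 0, 39.3, 0, 82.5 and 14.2 in Ly6Chi Ac-6-FP libraries. In Ly6Clo libraries it was at 456, 698, 0, 629 and 810 with vehicle and at 748, 528, 799, 339 and 546 with Ac-6-FP. Again mouse 13 was at 0 in both subsets and the other 9 mice were higher in Ly6Clo cells, without overlap among those 9. The log2 difference was 5.01 (SE 1.02, limma adjusted p = 0.01317), and 5.51 (adjusted p = 0.005562) without mouse 13, but edgeR's quasi-likelihood test with the mouse as a replicate block did not call it (adjusted p = 0.1126). Its adjusted p ranged from 0.00196 to 0.2212 over the alternatives tried. A value of 0 allows up to 3 reads in a library, a limit that covers counting error only.

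Ciita, the transactivator, was measured with few reads. It was at 0 in 8 of 10 Ly6Chi libraries, with 12.4 in mouse 11 and 26.6 in mouse 19. Its Ly6Clo values were 93.8, 44.6, 0, 210 and 0.95 with vehicle and 0, 508, 0, 100 and 250 with Ac-6-FP. Ciita was thus higher in Ly6Clo cells of 7 mice, of which mouse 15 had 1 read and shows no resolved direction, and it was at 0 in both subsets of the other 3. The log2 difference of 3.59 (SE 1.14) did not pass the threshold (limma adjusted p = 0.1104; two-sided exact permutation p = 0.01562, unadjusted), and Ciita passed the filter on low values only through its Ly6Clo groups. Without mouse 13 the log2 difference was 4.01 (adjusted p = 0.08033). The exact permutation p is the smallest that the 7 mice with a difference allow, and it counts mouse 15 with its 1 read. Ciita overlaps Dexi, whose means were 16.7 in Ly6Chi and 17.3 in Ly6Clo libraries. With so many Ly6Chi values at 0, the size of the log2 difference depended on the pseudocount. With 10 and 0.1 in place of 1 it was 4.51 and 7.37 for H2-Oa, 3.83 and 6.03 for H2-Ob, and 2.12 and 5.17 for Ciita.

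Thus 8 of the 9 members rose from Ly6Chi to Ly6Clo cells (limma, Benjamini-Hochberg adjusted p under 0.05 over all 17248 genes), where 3.41% of all genes tested were called higher in Ly6Clo cells. The median log2 difference of the members was 5.02, against 0.03 for all genes tested. For the 5 vehicle mice, in the same fit with a variance pooled over all 10 mice, 4 of 9 members were called (all genes 1.54%), namely H2-Aa, H2-Ab1, H2-Eb1 and Cd74. For the 5 Ac-6-FP mice in that fit H2-DMb1 and H2-Ob were called as well, which made 6 of 9 (all genes 2.19%). H2-Ob passed narrowly there (limma adjusted p = 0.04887), and with mouse 16, 17 or 18 left out 4 of 9 were called. With genes detected as a covariate the counts were 7 in vehicle and 5 in Ac-6-FP mice. Without mouse 13 the counts were 7 of 9 in vehicle mice (all genes 1.82%) and 8 of 9 in Ac-6-FP mice (all genes 2.69%). Since the libraries hold bulk RNA, more cells that express these genes and more RNA per cell cannot be told apart.

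**Figure D2:**
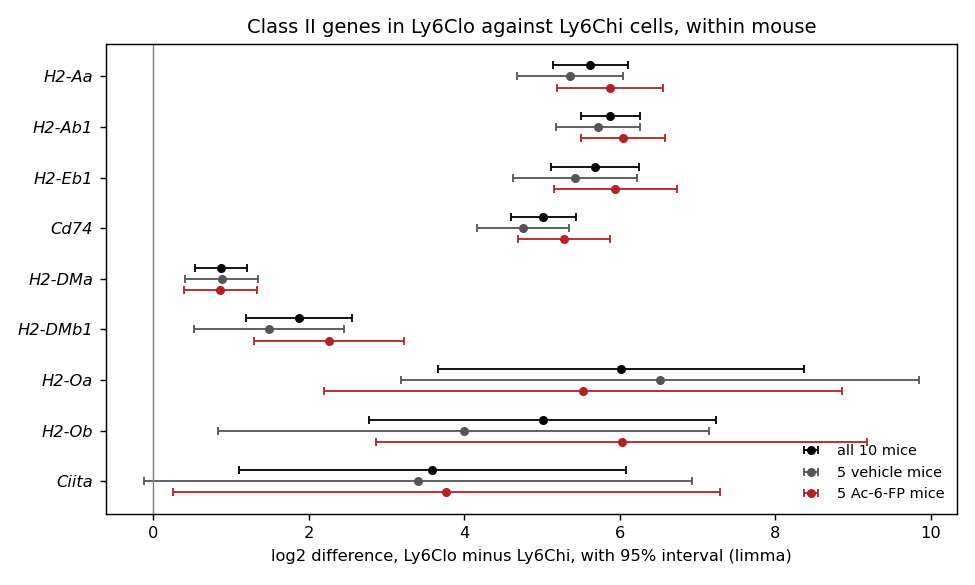
Points give the log2 difference Ly6Clo minus Ly6Chi within mouse (x axis) for each gene (y axis), with 95% intervals from limma, over all 10 mice (black), 5 vehicle mice (grey) and 5 Ac-6-FP mice (red). H2-Aa, H2-Ab1, H2-Eb1 and Cd74 lie between 4.75 and 6.04 in all 3 sets of mice, H2-DMa lies at 0.87 over all mice, and the intervals of H2-Oa, H2-Ob and Ciita are wide.

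Because the members differed to unequal extents, their proportions within a library differed between the subsets. Such ratios do not depend on the size factor, and their absolute size depends on gene lengths. H2-DMa amounted to 47.6% ± 16.3 (SD, n = 10) of Cd74 in Ly6Chi libraries, between 24.1% and 77.5%. In Ly6Clo libraries it amounted to 2.58% ± 0.453 (n = 10), between 1.65% and 3.48%, without overlap. Cd74 over H2-Ab1 was 5.44 ± 1.16 in Ly6Chi and 2.96 ± 0.489 in Ly6Clo libraries, with overlap between 3.60 and 3.82. H2-DMb1 amounted to 16.6% ± 4.27 of H2-DMa in Ly6Chi and 33.6% ± 8.60 in Ly6Clo libraries. Mouse 13 ran the other way, at 23.7% in Ly6Chi and 13.5% in Ly6Clo cells.

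The summed H2-O genes amounted to 1.53% ± 1.69 (SD, n = 10) of the summed H2-DM genes in Ly6Chi libraries, at most 4.97%. In Ly6Clo libraries the share was 12.6% ± 5.69 (n = 10), with 0% in mouse 13 and between 8.82% and 20.2% in the other 9 mice. Among those 9 the share was higher in the Ly6Clo library of each. H2-O was therefore the smaller component in both subsets by normalized count, and its proportion to H2-DM was the larger in Ly6Clo cells, except in mouse 13.

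**Figure D3:**
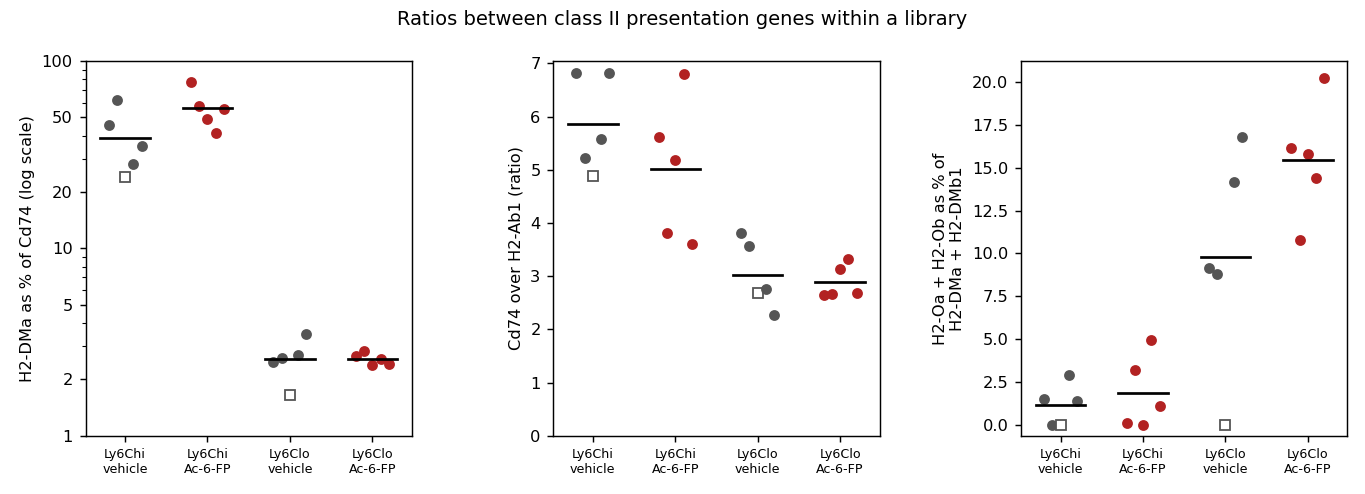
Each point is 1 library and each bar a group mean, for H2-DMa as a percentage of Cd74 (left, log scale), Cd74 over H2-Ab1 (middle) and summed H2-O as a percentage of summed H2-DM (right), with open squares for mouse 13. H2-DMa as a share of Cd74 separates the subsets without overlap, and summed H2-O is at most 4.97% of H2-DM in Ly6Chi libraries.

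Around the members, a list of 43 further genes of the class II pathway was examined, of which 42 were tested. Of these, 9 were higher and 1 was lower in Ly6Clo cells, and the median log2 difference of the 42 was 0.31, where 588 of all 17248 genes were higher (3.41%), 312 were lower and the median was 0.03. Both other class II chains tested were called. H2-DMb2 (above) and H2-Eb2, an E beta paralogue (5.08, limma adjusted p = 0.00158, mean 0.107 in Ly6Chi and 73.1 in Ly6Clo libraries), were both higher, where H2-Eb2 passed the filter on low values only through its Ly6Clo groups. The I-E alpha pseudogene H2-Ea-ps was at 0 in 19 of 20 libraries.

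Of 10 genes for lysosomal processing, 3 were higher in Ly6Clo cells. These were Cst3, which encodes the protease inhibitor cystatin C (1.11, limma adjusted p = 4.838e-08), and the cathepsins Ctsb (0.55, adjusted p = 0.00219) and Ctsd (0.56, adjusted p = 0.0328). Ctss, the protease that trims the invariant chain, was abundant in both subsets, with means of 40587 in Ly6Chi and 47704 in Ly6Clo libraries, and a log2 difference of 0.23 that missed the threshold (adjusted p = 0.05104). Ifi30, the lysosomal thiol reductase (-0.81, adjusted p = 0.2004), and Lgmn, an asparaginyl protease (0.48, adjusted p = 0.4514), did not pass either. The processing genes thus differed by far less than the class II chains.

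None of the 7 enhanceosome genes, which encode the factors on the X and Y boxes, passed. Rfx5, a subunit of the RFX complex, had means of 0.176 in Ly6Chi and 67.8 in Ly6Clo libraries and was at 0 in 14 of 20 libraries (log2 difference 3.29, limma adjusted p = 0.1552). Of 10 genes of the interferon gamma axis, which induces Ciita, Ifngr1, a chain of the receptor, was higher in Ly6Clo cells (0.58, adjusted p = 0.0304). Among 3 genes for turnover of surface class II, Cd83, which shields class II from ubiquitination, was higher (5.61, adjusted p = 0.01125), and the ubiquitin ligase March1 did not pass (-0.31, adjusted p = 0.2694). Pdcd1lg2, which encodes PD-L2, was the 1 called gene among 6 for co-stimulation (6.38, adjusted p = 0.002665). Cxcr2, a receptor that pairs with Cd74 for the cytokine Mif, was the 1 called among 4 (6.19, adjusted p = 0.0026), and it too passed the filter only through its Ly6Clo groups. Mif itself did not pass the test (0.18, adjusted p = 0.7537).

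Summed markers of dendritic cells and of T and NK cells were higher in Ly6Clo cells. Other marker lists overlapped between the subsets or were lower. The summed level of 10 dendritic cell markers was 261 to 1206 in Ly6Chi and 9764 to 24745 in Ly6Clo libraries. Of these, 4 of 10 were called higher (all genes 3.41%), among which Itgax and Ccr7 passed the filter on low values only through their Ly6Clo groups. Zbtb46, Xcr1, Clec9a, Clec10a, Siglech and Batf3 did not pass (limma adjusted p from 0.1292 to 0.7193). Cd209a had the highest mean of the 10 in Ly6Clo cells. Cd209a was at means of 188 and 11870, Ccr7 at 4.74 and 3154, and Itgax, which encodes the CD11c used to gate cells out, at 0 in all Ly6Chi libraries and at a mean of 1640 in Ly6Clo libraries. Dendritic cells are known for high class II expression, and the part of these cells in the result was not tested. The 7 T and NK cell markers found summed to 0 to 812 in Ly6Chi and 39540 to 86330 in Ly6Clo libraries, led by the NK genes Gzma, Nkg7, Klrb1c and Ncr1.

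The 8 B cell markers, of another class II positive cell type, summed to 116 to 924 in Ly6Chi and 0 to 1284 in Ly6Clo libraries. The defining B cell genes Pax5 and Blk were at 0 in all 20 libraries, while Cd79a was called higher in Ly6Clo cells (5.38, limma adjusted p = 0.007012), having passed the filter only through its Ly6Clo groups. The sum of 0 was that of the Ly6Clo library of mouse 13, in which many genes of higher level were also at 0, and the other 9 Ly6Clo libraries had sums of at least 394. Among the 5 Ly6Chi monocyte markers, which summed to 100242 to 201890 in Ly6Chi and 8613 to 31501 in Ly6Clo libraries, all 5 were lower in Ly6Clo cells. The 5 macrophage markers found summed to 4872 to 17330 and 2500 to 28052, with none called, and the 6 Ly6Clo markers to 4296 to 22590 and 6820 to 49958, with 2 called higher. Neutrophil markers summed to 4403 to 14617 and 343 to 27120, with Mpo and Elane called lower and Camp and Ngp called higher in Ly6Clo cells. Camp and Ngp passed the filter only through their Ly6Clo groups. Kupffer cell markers summed to 0 to 281 and 0 to 899, endothelial markers to 31.9 to 338 and 0 to 4451, and hepatocyte markers to 103 to 1201 and 1018 to 2184. In each of these lists 1 marker was called higher. The part of these cell types in the class II result was not tested.

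**Figure D4:**
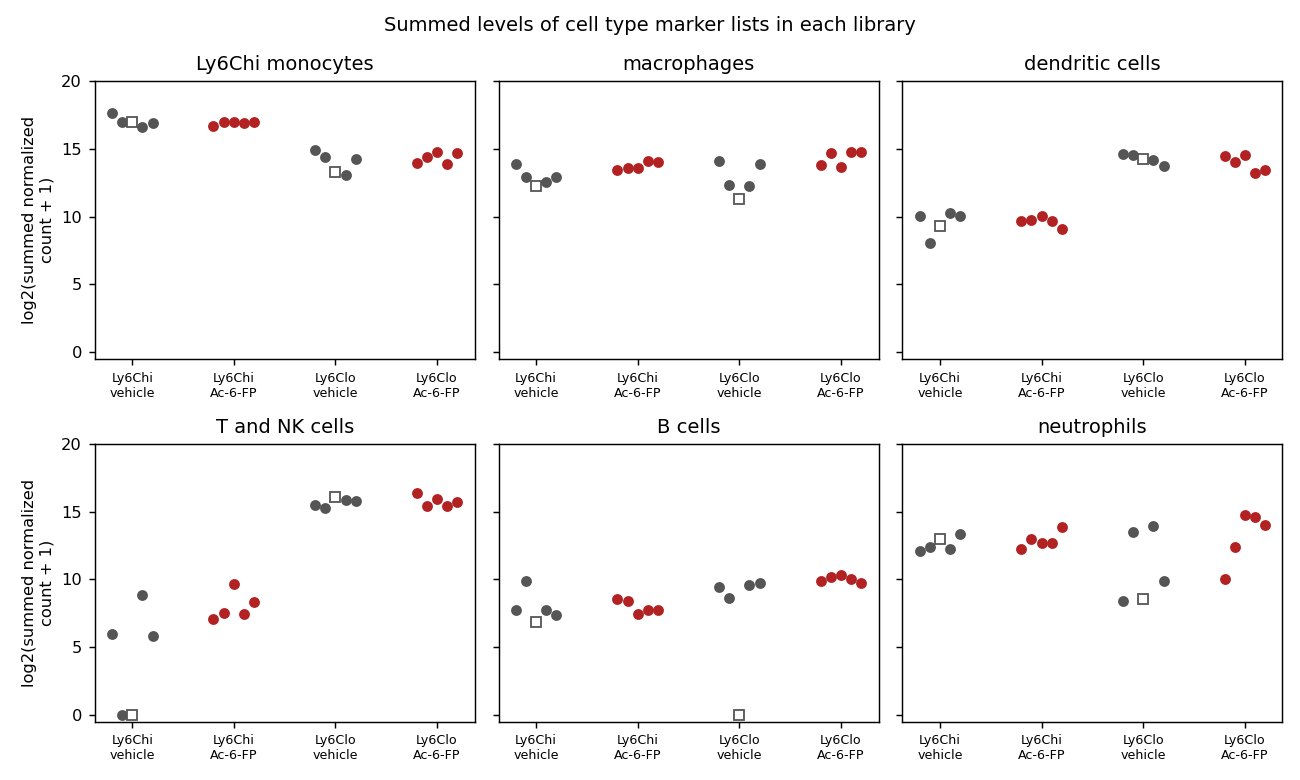
Each point is the summed normalized count of a marker list in 1 library, as log2(sum + 1) (y axis), by group (x axis), with open squares for mouse 13. Dendritic cell and T and NK cell markers are higher in all Ly6Clo libraries than in any Ly6Chi library, Ly6Chi monocyte markers are lower, and B cell, macrophage and neutrophil markers overlap.

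The genes most like the class II genes in their levels were sought over 19 libraries, leaving out the Ly6Clo vehicle library of mouse 13. Likeness was the Pearson correlation with the mean standardized log2 level of H2-Aa, H2-Ab1, H2-Eb1 and Cd74. The 10 closest were Klrc2, Klra4, Cd200r3, Klra8, Prf1, Klrg1, Klra14-ps, Ms4a2, Klra7 and Sh2d1a, with r from 0.992 for Klrc2 to 0.987 for Sh2d1a. All 10 were at 0 in every Ly6Chi library and above 0 in those 9 Ly6Clo libraries, so that these values describe the split between the subsets that the libraries share. Of the members outside the score, H2-DMb1 had r = 0.956, H2-DMa 0.853, H2-Oa 0.817, H2-Ob 0.801 and Ciita 0.569.

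After each group's mean was subtracted, the relation among members within groups was weaker, and differed between them. H2-DMa (r = 0.619) and H2-DMb1 (r = 0.613) varied with the class II chains across mice. H2-Oa (-0.361), H2-Ob (-0.162) and Ciita (-0.356), with many values near 0, had negative coefficients over 19 libraries. With the library of mouse 13 included these were 0.036 for H2-Oa, 0.12 for H2-Ob and -0.182 for Ciita, so that the sign of H2-Oa and H2-Ob rested on that library. The closest other gene was then Chek1 (r = 0.694), followed by Ube2e3, Hnrnpa3 // Gm6793, Lig3, Pgk1, Usp18, Nos3, Gm20300, Spint2 and 4921524J17Rik (down to 0.648). This order rested on leaving out the library of mouse 13, since 3 of the 10 genes were among the closest 10 over all 20 libraries, and r fell to 0.263 for Usp18 and 0.416 for Pgk1. These are descriptions over libraries that share depth and mice.

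Exposure to Ac-6-FP moved no member past the threshold in Ly6Chi cells. Of the 9 members 0 were called by limma, where 13 genes, 0.0754% of all tested, were called in either direction, and edgeR's quasi-likelihood test called 0 of the 17248 genes. Cd74 had a mean of 11361 ± 2765 (SD, n = 5) with vehicle and 6877 ± 1760 (n = 5) with Ac-6-FP. The values of mice 16, 17, 19 and 20 (listed above) lay below all 5 vehicle libraries, and mouse 18, at 9107, lay within their range. The log2 difference Ac-6-FP minus vehicle was -0.73 (SE 0.23, 95% interval -1.25 to -0.20, limma adjusted p = 0.4721). The two-sided exact permutation p, unadjusted, was 0.03175 with all mice and 0.06349 without mouse 13.

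H2-DMb1 was at 563, 1186, 776, 552 and 828.8 with vehicle and at 548, 395, 464, 612 and 583 with Ac-6-FP in Ly6Chi cells. Its groups overlapped, and its log2 difference was -0.54 (SE 0.23, limma adjusted p = 0.5471; exact permutation p = 0.06349). Cd74 and H2-DMb1 were the 2 of 9 members with an unadjusted limma p under 0.05, both lower with Ac-6-FP, where 2.02% of all genes were lower at that level. The class II chains H2-Aa (-0.53, SE 0.27), H2-Ab1 (-0.47, SE 0.26) and H2-Eb1 (-0.41, SE 0.34) had values below 0 with intervals that included 0. H2-DMa stood at -0.15 (SE 0.20). H2-Oa (3.02, SE 1.62) and Ciita (0.21, SE 1.15) lay above 0 and H2-Ob (-0.33, SE 1.98) below, with wide intervals that included 0. The median log2 difference of the members was -0.41, against 0.35 for all genes tested, 0.09 for all genes after quantile normalization and 0.01 after adjustment for genes detected per library. The signs of Cd74, H2-DMb1, H2-Aa, H2-Ab1, H2-Eb1 and H2-DMa were the same under both of those scalings. With genes detected as a covariate, however, 0 members had an unadjusted p under 0.05, and by edgeR 1 had. The highest value of any member with that covariate was 0.22.

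In Ly6Clo cells exposure to Ac-6-FP moved no member past the threshold either. Again 0 of 9 members were called by limma, with 9 genes called in all (0.0522%), and edgeR called 0 of the 17248 genes. No member had an unadjusted p under 0.05. Cd74 had means of 310901 ± 102553 (SD, n = 5) with vehicle and 267757 ± 70865 (n = 5) with Ac-6-FP, a log2 difference of -0.20 (SE 0.25, 95% interval -0.77 to 0.37). H2-Ab1 differed by -0.15 (SE 0.22), H2-Aa by -0.01 (SE 0.28), H2-Eb1 by 0.12 (SE 0.30) and H2-DMa by -0.17 (SE 0.33). The intervals of these 5 genes spanned between -0.91 and 0.80.

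The log2 differences of H2-DMb1 (0.23, SE 0.55), H2-Oa (2.03, SE 1.79) and H2-Ob (1.70, SE 1.74) in Ly6Clo cells rested on mouse 13. Without it they were -0.30 (SE 0.29), 0.12 (SE 0.31) and -0.16 (SE 0.29). Ciita, at 0.57 (SE 2.39) and -0.46 (SE 2.42) without mouse 13, could not be resolved at these counts. Without mouse 13, 8 of the 9 members had values below 0, where the median of all genes tested was 0.34.

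**Figure D5:**
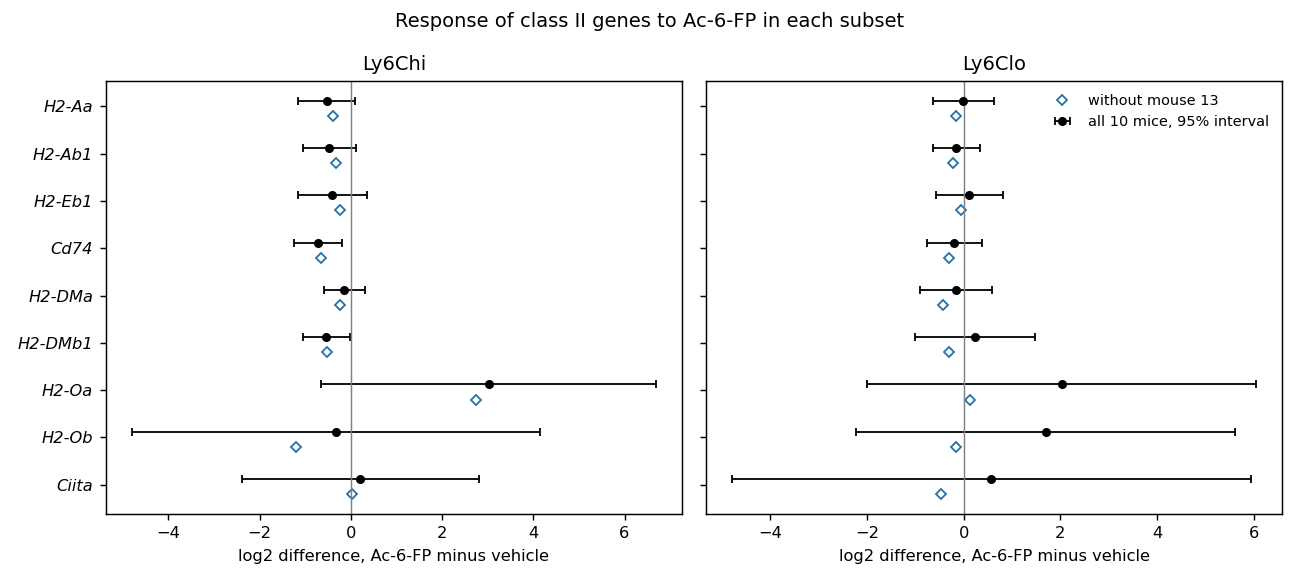
Points give the log2 difference Ac-6-FP minus vehicle (x axis) for each gene (y axis) in Ly6Chi (left) and Ly6Clo (right) cells, with 95% intervals from limma over all 10 mice, and diamonds the values without mouse 13. Only the intervals of Cd74 and H2-DMb1 in Ly6Chi cells exclude 0, before adjustment, and the intervals of H2-Oa, H2-Ob and Ciita span several log2 units.

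Whether the response differed between the subsets was tested on the within-mouse differences of Ac-6-FP mice against those of vehicle mice. No gene of the 17248 was called (0%) by limma or by edgeR, while 840 genes had an unadjusted limma p under 0.05, none of them a member. The response in Ly6Clo minus that in Ly6Chi cells was 0.53 (SE 0.38) for Cd74, 0.52 (SE 0.44) for H2-Aa, 0.32 (SE 0.35) for H2-Ab1 and 0.52 (SE 0.51) for H2-Eb1. It was 0.77 (SE 0.63) for H2-DMb1, 2.03 (SE 2.04) for H2-Ob and 0.36 (SE 2.27) for Ciita. Values below 0 were those of H2-DMa (-0.015, SE 0.30) and H2-Oa (-0.99, SE 2.15). The two-sided exact permutation p lay at or above 0.2698 for all 9 members with all mice. For Cd74 the 95% interval of the difference, -0.30 to 1.36, holds both equal responses and a response over 1 log2 unit apart.

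In none of the 3 comparisons with Ac-6-FP was a gene of the 43-gene pathway list called, with lowest adjusted p-values by limma of 0.3973 in Ly6Chi cells, 0.4525 in Ly6Clo cells and 0.8301 for the difference in response. In Ly6Chi cells 28 of the 42 tested had values above 0, with a median of 0.18 against 0.35 for all genes. In Ly6Clo cells 34 of the 42 had values above 0, with a median of 0.99 against 0.91 for all genes.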

How the data were processed

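RNA was sequenced from 20 libraries, both subsets of 10 mice, and libraries were matched to mouse, subset and treatment by the numbers and letters in the column names and sample titles. The authors aligned reads with STAR to mm10, counted them on constitutive regions of FAST DB genes and divided the counts by DESeq size factors before deposit. The deposited signal values are normalized counts on a linear scale, not divided by length. Of the values above 0, 100.00% were whole multiples of 1 step per library within 0.006, from which whole reads were recovered. The step of the Ly6Chi library of mouse 15 is too close to 1 for this check.

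A pseudocount of 1 was added before the log2 transform, and the 17248 genes with a group mean of 10 or more in any of the 4 groups were fitted with limma 3.58.1 (R 4.3.3, variance prior with a trend, Benjamini-Hochberg, threshold 0.05). The subsets were compared on within-mouse differences with treatment as a term, and Ac-6-FP with vehicle within each subset. Single members were tested by two-sided exact permutation (pandas 2.3.3, scipy 1.17.1), for which 5 against 5 mice allow a smallest p of 0.007937. Pairing followed the labels, since both subsets came from 1 liver. The check of the pairing gave a median residual correlation of 0.0338 within mice and -0.00496 between mice. Every member was named, with genes of a pathway list that passed or define it, marker lists by their sums, and the 10 genes most correlated with the class II chains. Single values of some listed genes are not reported here. Members, lists and tests were chosen with earlier results of these data known.

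Alternatives were other pseudocounts (0.1 and 10) and filters, quantile normalization, genes detected as a covariate, no pairing, no treatment term, each mouse left out, and edgeR 4.0.16 (quasi-likelihood test) on recovered reads. The limma fit was tested on simulated data with a single dispersion for all genes and no differences between mice. Changes of 1 log2 unit were recovered for 58% of genes between subsets. For Ac-6-FP they were recovered for 24% in Ly6Chi and 12% in Ly6Clo cells. At 2 log2 units these shares were 100%, 92% and 86%. Antisense or overlapping genes cannot be told apart without strand.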

Additional observations from a re-analysis of the deposited data

Results flagged for a closer look

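Of the 36 sets of 5 libraries (9 genes in 4 groups), 5 held a library far from the other 4 on the log2 scale, where chance flags about 1 in 20 sets of continuous values. That rate does not apply to 3 of the 5, in which the other 4 libraries were at 0 and any value above 0 would stand apart. H2-Oa was at 48.7 normalized counts in the Ly6Chi vehicle library of mouse 11, with the other 4 at 0. H2-Oa and H2-Ob were both at 0 in the Ly6Clo vehicle library of mouse 13, with the others between 493.1 and 1144 for H2-Oa and between 456 and 810 for H2-Ob. Ciita was at 12.4 in the Ly6Chi vehicle library of mouse 11 and at 26.6 in the Ly6Chi Ac-6-FP library of mouse 19, with the other 4 of each group at 0. No member's response to Ac-6-FP differed between the subsets in an exact permutation test at 0.05.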

How the results depend on the processing

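Between the subsets, all 9 members kept their direction under all 20 alternatives. The number of members called stayed at 8 except under edgeR with a replicate block, which called 7 (without H2-Ob), or 5 when mouse 15 was left out as well (without H2-DMa, H2-Oa and H2-Ob), an alternative added after the data were seen. Genes called in all numbered 900 (588 higher and 312 lower in Ly6Clo), 511 by edgeR with the replicate block (392 without mouse 15), 1848 with genes detected as a covariate (751 higher, 1097 lower), 974 after quantile normalization (529 higher, 445 lower) and 655 to 1151 with 1 mouse left out. Taking out the replicate block changed no member's call.

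For Ac-6-FP in Ly6Chi cells, 13 genes were called, 5 with no filter or quantile normalization, 4 with a filter at 100, 0 with the covariate or edgeR, and 0 to 133 with 1 mouse left out. In Ly6Clo cells, 9 were called, 2 with a pseudocount of 10, no filter, a filter at 100 or the covariate, 3 after quantile normalization, 0 by edgeR, and 0 to 103 with 1 mouse left out, where mouse 11 gave the highest number in both subsets. For the difference in response, 2 were called with a filter at 100 and 1 after quantile normalization. No alternative called a member in these 3 comparisons.

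Signs that changed were all of values that no setting called, and the cause was not tested. In Ly6Chi cells Ciita turned to -1.09 with the covariate, and with 1 mouse left out Ciita ranged from -0.75 to 0.96 and H2-Ob from -1.19 to 0.56. In Ly6Clo cells the covariate gave -0.11 for H2-Eb1, -0.43 for H2-DMb1, -0.25 for H2-Oa, -0.23 for H2-Ob and -1.08 for Ciita, quantile normalization gave -0.037 for H2-Eb1 and 0.085 for Cd74, and edgeR gave -0.13 for H2-DMb1. With 1 mouse left out, Ly6Clo values ranged from -0.16 to 0.20 for H2-Aa, -0.24 to 0.027 for H2-Ab1, -0.053 to 0.35 for H2-Eb1, -0.30 to 0.54 for H2-DMb1, -0.16 to 2.25 for H2-Ob and -0.49 to 1.75 for Ciita. The difference in response turned to 0.037 for H2-Oa with a pseudocount of 10 and -0.13 for Ciita with 0.1, and ranged from -0.22 to 0.16 for H2-DMa and -0.94 to 1.44 for Ciita with 1 mouse left out. Low counts limit H2-Oa, H2-Ob and Ciita.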
